A study of Drosophila melanogaster with 31 samples.

Results

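Accessible chromatin was examined at 4 genes that direct the *Drosophila* embryonic salivary gland: fkh, sage, CrebA and sens. The genes were taken by name, and every ATAC-seq peak summit inside a gene body or within 5 kb of either end was counted as theirs. These windows held 644 of the 876445 summits in the 12 deposited peak lists. Summits within 150 bp of a stronger one were joined into a site, which left 79 sites at the 4 genes of 158915 in all. No cell type was labelled, since every library came from whole embryos.

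ATAC-seq cuts open DNA with a transposase, so a peak marks chromatin that is accessible in at least part of the embryo. In whole embryos, fewer cells with an open site and less opening per cell cannot be told apart. The study asked whether Grainy head (Grh), an epithelial transcription factor, is needed to open chromatin. The grhM- embryos came from germline clones and lacked maternal Grh, the grhB37/B37 embryos were homozygous for the null allele grhB37 and lacked zygotic Grh, and the grhM-Z- embryos were grhMaternal- and homozygous for grhB37. Their controls were grhM+, grhB37/+ and grhM+Z+ embryos, of which both grhB37/+ and grhM+Z+ carried 1 copy of grhB37. The labels give no zygotic grh genotype for grhM- and grhM+ embryos. The grhM- and grhM+ embryos were taken at stage 5 (cellularisation) and stage 6 (gastrulation), the grhB37/B37 and grhB37/+ embryos at stage 6 and at 11-12 h after egg laying, and the grhM-Z- and grhM+Z+ embryos at stages 5 and 6. Stage 5 and stage 6 libraries came from single embryos and were sequenced paired-end, whereas the 11-12 h libraries came from pooled embryos, were sequenced single-end and had no selection of short fragments. Age and library type therefore cannot be told apart at 11-12 h.

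The 4 genes act in 1 organ. The Hox protein Scr, with its cofactors Exd and Hth, specifies the salivary gland placode and switches on fkh and CrebA. Fkh is a FoxA-type forkhead factor that keeps the gland alive and lets it invaginate, and CrebA is a bZIP factor that raises the genes of the secretory pathway. Sage is a bHLH factor that acts with Fkh on genes for the gland's secreted products, and Sens is a zinc-finger factor, also known from sensory organ precursors, that protects gland cells from death. The placode forms only after stage 6; fkh is active before that at both ends of the embryo, where the gut arises.

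Of the 31 samples, 11 of the single embryos (3 grhM-Z- and 2 grhM+Z+ at stage 6, 3 grhM-Z- and 3 grhM+Z+ at stage 5) had their own peaks in the files. The other 8 conditions had 1 list each, made from 3 libraries at stages 5 and 6 and from 1 library at 11-12 h, so 19 lists were compared. They held between 12001 (grhB37/B37 at 11-12 h) and 106497 (grhB37/B37 at stage 6) summits, and 24857 in grhB37/+ at 11-12 h. The median summit had 16 to 22 stacked fragments in the embryo lists and 23 to 46 in the condition lists. Because list length and depth differed this much, each summit was given its rank within its list by −log10 q, rank 1 being the strongest. A gain in rank is given as a log2 difference, positive where the first-named group had the smaller, that is stronger, rank.

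The sites that carry the results below are shown as 200 bases of the reference genome (dm6) around the strongest summit, on the plus strand. Capitals mark the stretch between the lower and the upper quartile of all summit positions listed at that site. The fkh and sens genes run on the minus strand and CrebA on the plus strand.
fkh promoter site, chr3R:28585436-28585635: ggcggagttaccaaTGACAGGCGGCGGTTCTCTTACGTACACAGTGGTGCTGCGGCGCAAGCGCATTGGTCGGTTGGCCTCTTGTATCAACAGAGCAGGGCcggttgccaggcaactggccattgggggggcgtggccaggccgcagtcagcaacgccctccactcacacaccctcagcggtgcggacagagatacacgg
fkh upstream site, chr3R:28586310-28586509: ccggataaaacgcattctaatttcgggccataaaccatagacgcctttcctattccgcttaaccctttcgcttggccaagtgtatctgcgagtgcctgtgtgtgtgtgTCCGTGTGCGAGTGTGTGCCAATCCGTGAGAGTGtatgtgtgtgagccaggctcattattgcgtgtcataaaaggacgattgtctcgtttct
CrebA intron site, chr3L:15544851-15545050: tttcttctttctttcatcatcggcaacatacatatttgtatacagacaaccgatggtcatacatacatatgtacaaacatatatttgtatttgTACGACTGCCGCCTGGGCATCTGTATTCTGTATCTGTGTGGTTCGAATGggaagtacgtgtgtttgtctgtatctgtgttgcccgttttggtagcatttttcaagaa
sens promoter site, chr3L:13401240-13401439: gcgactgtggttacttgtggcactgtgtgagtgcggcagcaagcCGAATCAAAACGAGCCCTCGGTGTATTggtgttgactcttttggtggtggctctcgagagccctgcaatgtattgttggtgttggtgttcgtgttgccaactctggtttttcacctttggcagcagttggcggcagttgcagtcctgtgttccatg
sens upstream site, chr3L:13403551-13403750: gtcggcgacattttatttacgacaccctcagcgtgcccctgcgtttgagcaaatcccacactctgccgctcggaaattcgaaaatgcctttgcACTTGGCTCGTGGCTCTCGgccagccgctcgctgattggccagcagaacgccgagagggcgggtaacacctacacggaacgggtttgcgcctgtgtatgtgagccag
This stretch spanned 87 bases at the fkh promoter site, 49 at the CrebA intron site and 19 at the sens upstream site, so the fkh promoter peak had the least fixed summit of the 3.

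The 79 sites were 36 at CrebA, 17 at fkh, 13 at sage and 13 at sens. Of these, 17 reached a rank within 5000 in at least 1 list and are described one by one; the other 62 were weaker. A total of 20 sites appeared in 1 list only, 54 were listed only at stages 5 and 6, 8 only at 11-12 h and 17 at both. Only 6 were listed in all 19 lists. In the 17 stage 5 and stage 6 lists the fkh window held 2 to 15 summits, the sage window 5 to 10, the CrebA window 11 to 27 and the sens window 4 to 12, against a median of 3 to 11 over the windows of all protein-coding genes. The windows differ in length, from 11.5 kb at sage to 27.8 kb at CrebA. Per 10 kb there were 1.4 to 10.5 summits at fkh, 4.35 to 8.7 at sage, 3.95 to 9.71 at CrebA and 2.68 to 8.05 at sens, against a median of 2.46 to 8.14 over all genes.

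**Figure D1:**
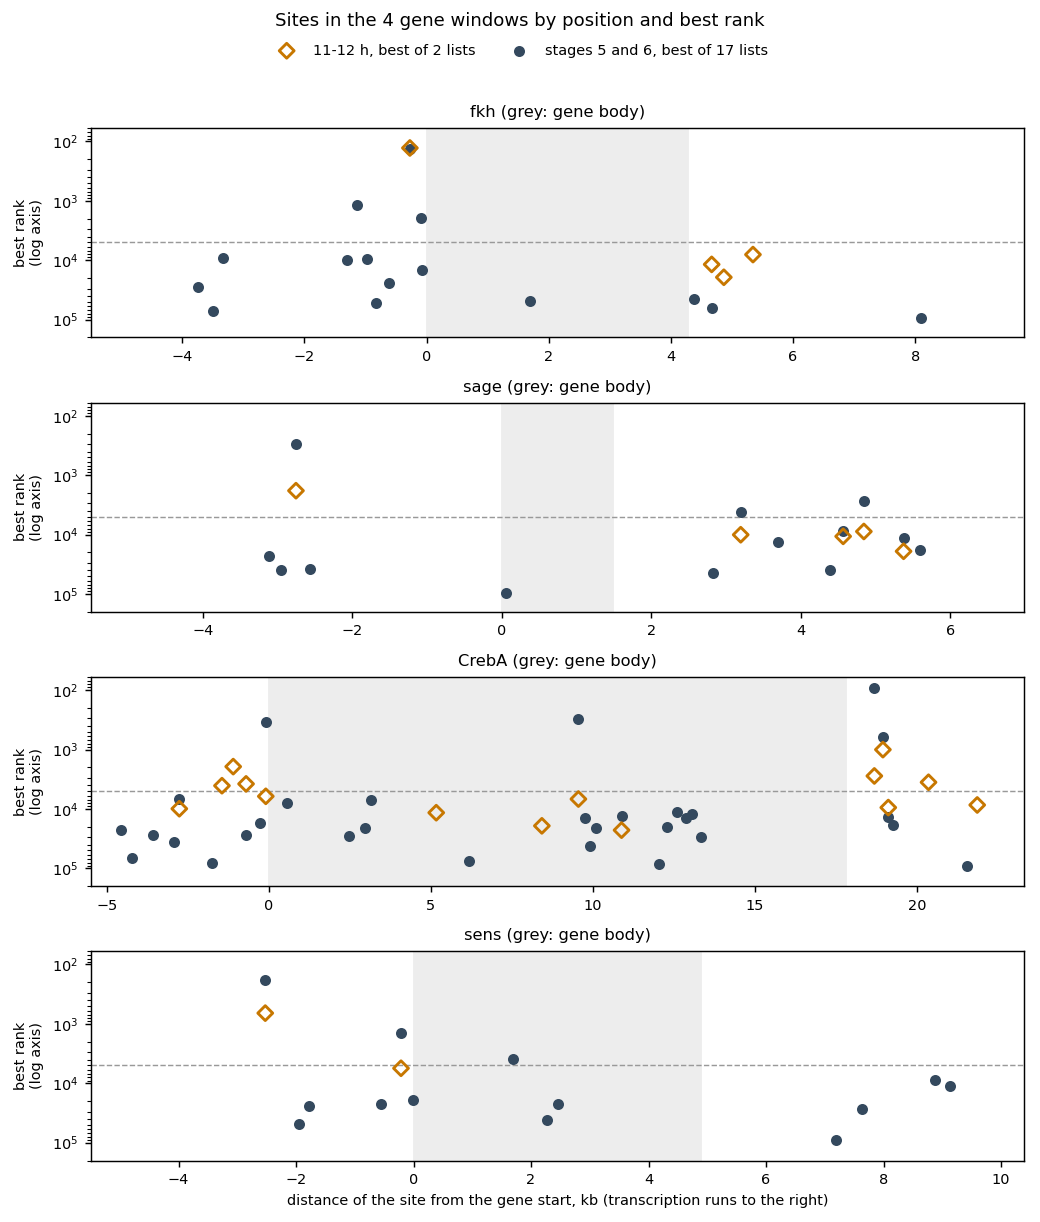
Best rank (vertical log axis, strongest at the top) of each of the 79 sites by distance from the gene start in kb, with the gene body in grey and a dashed line at rank 5000. Open diamonds are the best of the 2 lists from 11-12 h and filled circles the best of the 17 lists from stages 5 and 6; sage has no site above the line in its own body, while fkh has its strongest site just before its start at both ages.

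At fkh (FBgn0000659, chr3R:28580976-28585264, minus strand) the leading site lay 272 bp before the gene start, between fkh and the noncoding RNA gene lncRNA:CR43126, and was listed in all 19 lists. It was stronger at stage 6 than at stage 5. In single embryos it ranked 254, 717 and 136 in grhM-Z- and 959 and 249 in grhM+Z+ embryos at stage 6. At stage 5 it ranked 3304, 1943 and 2845 in grhM-Z- and 1132, 2416 and 2917 in grhM+Z+ embryos. Every stage 6 embryo therefore stood ahead of every stage 5 embryo. The fold enrichment was 7.41 to 9.06 at stage 6 and 5.55 to 7.20 at stage 5, and 90 to 139 fragments were stacked at the summit at stage 6 against 64 to 86 at stage 5. The gain in rank was 2.60 ± 0.59 (log2, SE, 5 against 6 embryos), or 6.08-fold, with an adjusted p of 0.0133 (limma, Benjamini-Hochberg over 20639 sites). Across all sites tested, 9.42% were called higher at stage 6 and 5.82% lower. When summits were ordered by fold enrichment in place of −log10 q, the gain was 0.81 with an adjusted p of 0.12. With summits joined within 75 bp it was 0.85 with an adjusted p of 0.58, because summits of the same peak then fell into separate sites.

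The condition lists of stages 5 and 6 moved the same way at the fkh promoter site in grhM- and grhM+ embryos. Its rank was 454 at stage 6 against 1573 at stage 5 in grhM- and 779 at stage 6 against 4352 at stage 5 in grhM+ embryos. At 11-12 h it ranked 249 in grhB37/B37 and 129 in grhB37/+ embryos, against 760 in grhB37/B37 and 2403 in grhB37/+ embryos at stage 6. The late lists were far shorter, and as a share of its list the site stood at 2.07% at 11-12 h against 0.714% at stage 6 in grhB37/B37 and at 0.519% at 11-12 h against 2.56% at stage 6 in grhB37/+ embryos. The fold enrichment was 4.32 at 11-12 h against 8.01 at stage 6 in grhB37/B37 and 6.08 at 11-12 h against 6.71 at stage 6 in grhB37/+ embryos. By rank and by share the site thus stood ahead at 11-12 h only in grhB37/+ embryos, while in grhB37/B37 embryos the 2 measures ran opposite ways. Its late ranks were the best of any site at the 4 genes. The peak was 768 bp wide in grhB37/B37 and 1007 bp in grhB37/+ embryos at 11-12 h, wider than or as wide as 95.5% of the peaks in grhB37/B37 and 95.8% in grhB37/+ embryos.

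A further summit 96 bp before the fkh start was listed separately in 7 lists, always inside the same peak as the promoter site. It ranked 2847 in grhB37/B37 and 1925 in grhB37/+ embryos at stage 6, between 3375 and 7106 in the 5 single embryos that listed it, and was not listed as a summit of its own at 11-12 h. Its stage difference in single embryos was −0.05 ± 0.52 (log2, SE), with an adjusted p of 0.95 (limma, Benjamini-Hochberg). Being listed here depended on whether the caller split the peak.

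The fkh upstream site ran the other way. It lay 1146 bp before the fkh start, in an exon of lncRNA:CR43126, 362 bp past the start of that gene. It ranked 26785, 26113 and 23199 in grhM-Z- and 23739 and 25210 in grhM+Z+ embryos at stage 6. At stage 5 it ranked 5943, 8985 and 2838 in grhM-Z- and 11023, 4540 and 4851 in grhM+Z+ embryos. The groups did not overlap, and the fold enrichment was 2.31 to 2.66 at stage 6 against 3.64 to 7.10 at stage 5. The peak was 103 to 289 bp wide at stage 6 and 436 to 550 bp at stage 5. Ranks beyond 15000 were held at 15000, so the fitted change of −1.38 ± 0.35 (log2, SE; adjusted p = 0.0222, limma, Benjamini-Hochberg) understates the measured ranks. Every stage 6 embryo was held at that rank, so the stage 6 values had no spread in the fit. The site entered the test (within rank 15000 in at least 2 embryos) only through its stage 5 embryos, so the call adds no support of its own to the ranks above. The call was lost without grhM-Z- embryo 3 of stage 6, either grhM+Z+ embryo of stage 6 or grhM+Z+ embryo 2 of stage 5 (adjusted p from 0.0505 to 0.072). It was also lost when ordered by fold enrichment (−0.41) and with ranks held at 7500 (−0.52). In the condition lists it ranked 21795 at stage 6 against 1197 at stage 5 in grhM+ embryos, and was not listed at stage 6 against rank 5168 at stage 5 in grhM- embryos. It ranked 21535 in grhB37/B37 and 26642 in grhB37/+ embryos at stage 6 and was not listed in either genotype at 11-12 h. The remaining 14 fkh sites had best ranks between 8036 and 95448. A cluster of 3 of them, 4.7 to 5.3 kb past the start and so beyond the end of the gene, held the only other late summits of the window.

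**Figure D2:**
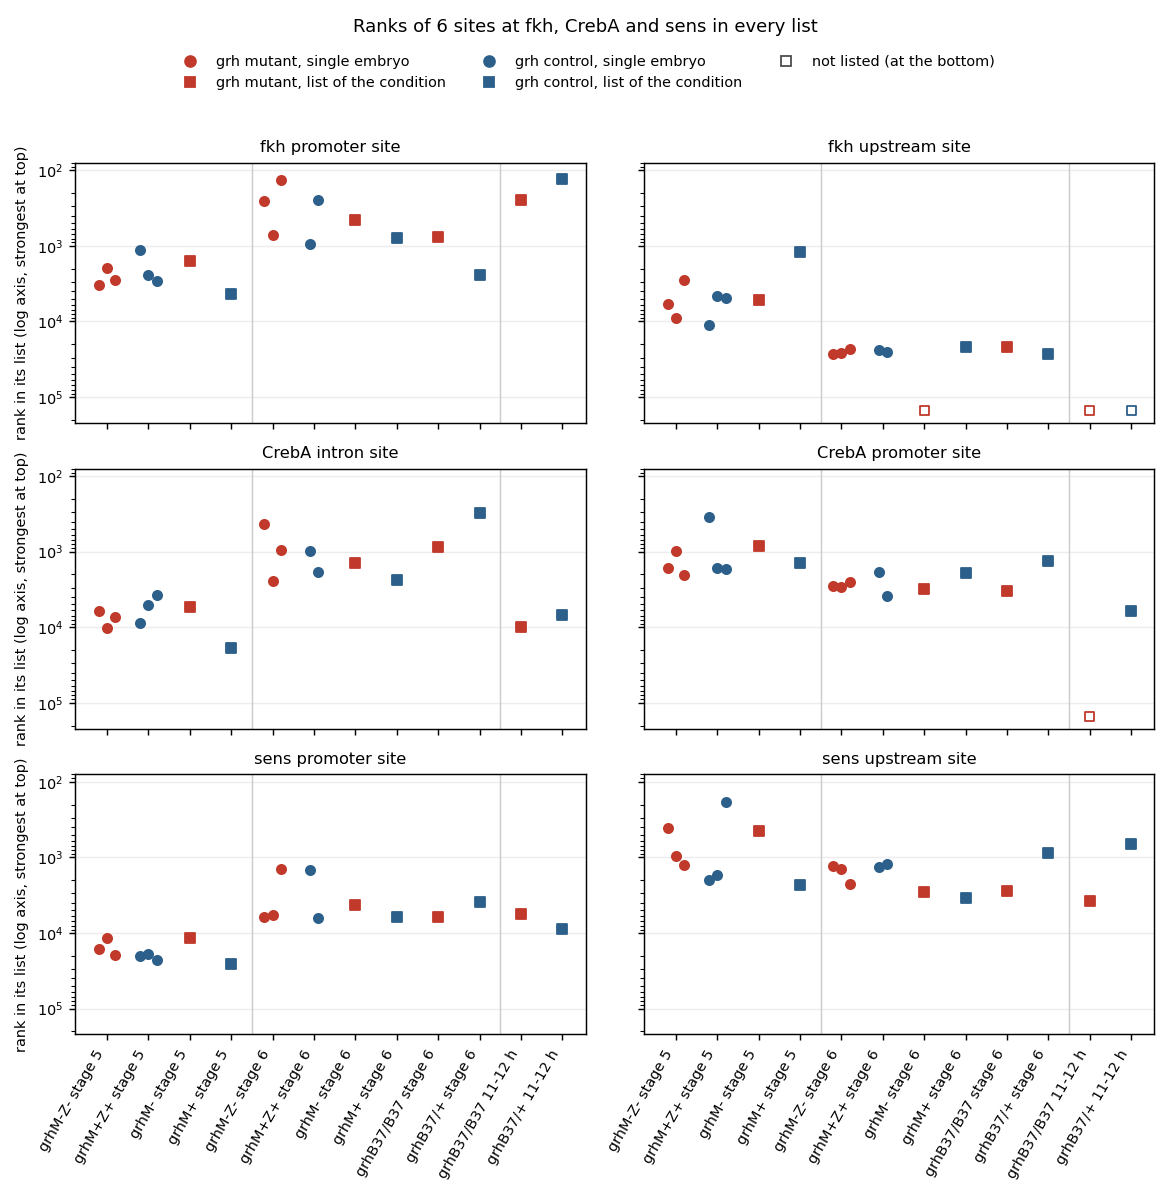
Rank (vertical log axis, strongest at the top) of 6 sites at fkh, CrebA and sens in every list, by condition from stage 5 to 11-12 h. Red marks grh mutants and blue their controls, circles are single embryos, squares are 1 list per condition and open symbols at the bottom are lists without the site; the fkh promoter, CrebA intron and sens promoter sites stand higher at stage 6 than at stage 5 in the single embryos, and the fkh upstream site stands lower.

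The sage gene (FBgn0037672, chr3R:9262654-9264142, minus strand) had almost no listed summits of its own in these whole-embryo lists. Its body and start held 1 site, 52 bp past a start site in the 5′ UTR, which was listed once among 19 lists, at rank 95362. The other 12 sites of the window all lay within 1 kb of the start of a neighbouring gene. The window held 3 to 5 summits at 11-12 h and 5 to 10 at stages 5 and 6.

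The strongest site of the sage window sat at the start of TrpRS, which encodes a tryptophanyl-tRNA synthetase, 2753 bp before the sage start. It was listed in all 19 lists, and ranked 294 to 2110 in the 5 stage 6 embryos (median 610) against 426 to 4898 in the 6 stage 5 embryos (median 1878.5). The ranges overlapped, and the gain of 1.21 ± 0.66 (log2, SE) had an adjusted p of 0.227 (limma, Benjamini-Hochberg). The starts of Ibf1, which encodes an insulator-binding protein, and of ATP6AP2, an accessory subunit of the vacuolar proton pump, held the other strong sites. The Ibf1 start ranked 2772 to 10273 at stage 6 and 5417 to 12729 at stage 5 (gain 0.55 ± 0.35, SE). The ATP6AP2 start ranked 4241 to 8218 at stage 6 and 7108 to 11109 at stage 5 (gain 0.63 ± 0.28, SE). Neither passed the test, with an adjusted p of 0.294 at Ibf1 and 0.146 at ATP6AP2 (limma, Benjamini-Hochberg). Of the 6 sites of the sage window that were tested, 0 were called. On log2 fold enrichment in place of rank the TrpRS start (0.48, adjusted p = 0.0363) and the ATP6AP2 start (0.50, adjusted p = 0.0238) passed the test (limma, Benjamini-Hochberg).

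CrebA (FBgn0004396, chr3L:15535395-15553214, plus strand) had 2 strong sites of its own at stages 5 and 6, 1 in an intron and 1 at the promoter. The CrebA intron site, 9.6 kb past the start, was listed in all 19 lists. It ranked 436, 2451 and 966 in grhM-Z- and 988 and 1841 in grhM+Z+ embryos at stage 6. At stage 5 it ranked 6015, 10216 and 7370 in grhM-Z- and 8880, 5111 and 3719 in grhM+Z+ embryos. The stages did not overlap, with a fold enrichment of 11.1 to 13.0 at stage 6 against 5.20 to 8.91 at stage 5. The gain of 2.48 ± 0.48 (log2, SE), or 5.58-fold, had an adjusted p of 0.00631 (limma, Benjamini-Hochberg), the lowest of the 24 sites tested at the 4 genes. This call was kept in all 20 alternatives fitted, namely 9 other settings and leaving out each of 11 embryos.

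Among the condition lists the CrebA intron site ranked 1415 at stage 6 against 5412 at stage 5 in grhM- and 2379 at stage 6 against 18703 at stage 5 in grhM+ embryos. It was strongest in the zygotic series at stage 6, at rank 859 in grhB37/B37 and 307 in grhB37/+ embryos. At 11-12 h it ranked 9862 in grhB37/B37 and 6821 in grhB37/+ embryos, well behind both. The site thus had its best ranks at stage 6 and stood lower on either side.

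The CrebA promoter site, 92 bp before the start, was listed in every stage 5 and stage 6 list. It ranked 2889, 2968 and 2518 in grhM-Z- and 1879 and 3891 in grhM+Z+ embryos at stage 6. At stage 5 it ranked 1643, 994 and 2047 in grhM-Z- and 348, 1623 and 1696 in grhM+Z+ embryos. The stages overlapped, and the difference of −1.18 ± 0.51 (log2, SE) had an adjusted p of 0.137 (limma, Benjamini-Hochberg). Ordered by fold enrichment it was −1.73 with an adjusted p of 0.0088. At 11-12 h the promoter site was not listed in grhB37/B37 and ranked 6136 in grhB37/+ embryos, against 3316 in grhB37/B37 and 1334 in grhB37/+ embryos at stage 6.

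In grhB37/+ embryos the CrebA promoter site was thus still listed at 11-12 h, at 24.7% of the list. The strongest summits before CrebA at that age lay farther upstream in both genotypes. A single peak of 1167 bp in grhB37/B37 and of 1335 bp in grhB37/+ embryos was listed there, from 1.69 to 0.53 kb before the start in grhB37/B37 and from 1.83 to 0.5 kb in grhB37/+ embryos. It was wider than or as wide as 99.1% of the peaks in grhB37/B37 and 98.7% in grhB37/+ embryos. The site 1098 bp before the start ranked 1941 in grhB37/B37 and 4978 in grhB37/+ embryos and was listed at neither stage 5 nor stage 6. As a share of its list it stood at 16.2% in grhB37/B37 and 20.0% in grhB37/+ embryos, with a fold enrichment of 2.83 in grhB37/B37. Another summit of this peak, 701 bp before the start, ranked 3792 in grhB37/B37 embryos (31.6% of the list), and one 1445 bp before the start ranked 4067 in grhB37/+ embryos (16.4% of the list). At stage 6 the 701 bp site was listed weakly in 5 lists, at ranks from 27173 to 45520, and at stage 5 in none. The same kind of late summit appeared 20.4 kb past the CrebA start, in an AGO2 intron, at rank 3560 in grhB37/B37 and 8213 in grhB37/+ embryos. That was 29.7% of the list in grhB37/B37 and 33.0% in grhB37/+ embryos. Rank 5000 marks weaker summits in the short late lists. Its −log10 q at 11-12 h was 4.5 in grhB37/B37 and 11.2 in grhB37/+ embryos, against 145 in grhB37/B37 and 149 in grhB37/+ embryos at stage 6.

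The other strong sites of the CrebA window belonged to AGO2, the Argonaute gene of the short interfering RNA pathway, which begins just past the end of CrebA. The site at the AGO2 start had the best rank of the whole window, 92 in grhM+ embryos at stage 6. It ranked 122 to 1516 in the stage 6 embryos and 124 to 1468 in the stage 5 embryos, a difference of −0.08 ± 0.83 (log2, SE; adjusted p = 0.95, limma, Benjamini-Hochberg). The AGO2 coding site, 235 bp past that start in the same peak, ranked 5466, 2639 and 5863 in grhM-Z- and 7519 and 7586 in grhM+Z+ embryos at stage 6. At stage 5 it ranked 1756, 1436 and 625 in grhM-Z- and 3154, 1805 and 2903 in grhM+Z+ embryos. It fell by 1.74 ± 0.41 on the log2 scale (SE; adjusted p = 0.0149, limma, Benjamini-Hochberg), although 1 stage 6 embryo ranked ahead of 2 of those at stage 5. The call was lost when joined peaks were ranked as 1 (−0.21), on log2 fold enrichment (−0.32) and with summits joined within 75 bp (−1.37).

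The sens gene (FBgn0002573, chr3L:13396228-13401125, minus strand) had no other gene in its window, and 3 strong sites. The sens promoter site, 215 bp before the start, was listed in all 19 lists. It ranked 6100, 5799 and 1418 in grhM-Z- and 1447 and 6427 in grhM+Z+ embryos at stage 6. At stage 5 it ranked 16499, 11753 and 19767 in grhM-Z- and 19966, 18980 and 22731 in grhM+Z+ embryos. The stages were fully separate, with 45 to 98 fragments at the summit at stage 6 against 19 to 33 at stage 5 and a fold enrichment of 5.49 to 7.98 at stage 6 against 2.71 to 3.48 at stage 5. The gain of 2.10 ± 0.47 (log2, SE), or 4.29-fold with stage 5 ranks held at 15000, had an adjusted p of 0.0119 (limma, Benjamini-Hochberg). The site met the filter for the test only through its stage 6 embryos, so the call adds no support of its own to the ranks above. All stage 5 ranks except 11753 were held, which narrowed the spread behind the gain. Without grhM+Z+ embryo 1 of stage 6 it was 1.56 with an adjusted p of 0.0596, and with ranks held at 7500 it was 1.16 with an adjusted p of 0.122.

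The condition lists gave the sens promoter site rank 4212 at stage 6 against 11648 at stage 5 in grhM- and 6224 at stage 6 against 25895 at stage 5 in grhM+ embryos. At 11-12 h it ranked 5591 in grhB37/B37 and 8926 in grhB37/+ embryos, against 6166 in grhB37/B37 and 3840 in grhB37/+ embryos at stage 6. As a share of its list it stood at 46.6% at 11-12 h against 5.79% at stage 6 in grhB37/B37 and at 35.9% at 11-12 h against 4.09% at stage 6 in grhB37/+ embryos, so its place in the list was far lower at 11-12 h in both genotypes. The fold enrichment was 2.34 at 11-12 h against 6.35 at stage 6 in grhB37/B37 and 2.79 at 11-12 h against 7.11 at stage 6 in grhB37/+ embryos.

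The sens upstream site, 2526 bp before the start, was the strongest of the window. It was listed in all 19 lists, with every summit within 78 bp. It ranked 1233 to 2277 in the 5 stage 6 embryos (median 1336) against 183 to 1964 in the 6 stage 5 embryos (median 1114), and the difference of −0.81 ± 0.66 (log2, SE) had an adjusted p of 0.401 (limma, Benjamini-Hochberg). At 11-12 h it ranked 3813 in grhB37/B37 and 660 in grhB37/+ embryos, against 2775 in grhB37/B37 and 866 in grhB37/+ embryos at stage 6. As a share of its list it stood lower at 11-12 h in both genotypes. The share was 31.8% against 2.61% at stage 6 in grhB37/B37 and 2.66% against 0.923% in grhB37/+ embryos. The fold enrichment was 2.58 at 11-12 h against 6.93 at stage 6 in grhB37/B37 and 5.54 against 8.28 in grhB37/+ embryos. The sens coding site, 1686 bp past the start, ranked 9829 to 19523 at stage 6 and 3848 to 15738 at stage 5 (−0.75 ± 0.34, SE; adjusted p = 0.161, limma, Benjamini-Hochberg) and was not listed at 11-12 h. These 2 late summits, promoter and upstream, were the only ones in the sens window at 11-12 h.

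In all, 24 of the 79 sites passed the filter for the test between stages (within rank 15000 in at least 2 embryos), 6 at fkh, 6 at sage, 7 at CrebA and 5 at sens. Of these, 5 were called (limma, adjusted p under 0.05): 3 higher at stage 6 (fkh promoter, CrebA intron, sens promoter) and 2 lower (fkh upstream, AGO2 coding). Over the genome, 1945 of 20639 were called higher and 1201 lower. The sens promoter and fkh upstream sites entered the test only through the stage where they were stronger. Their calls therefore add no support of their own to the ranks. The median difference was −0.039 over the 24 sites and −0.032 over all sites. The p-values measure the spread between single embryos. The embryos were counted together across genotypes with genotype means in the fit. In grhM+Z+ embryos alone, 0 of the 24 sites were called between stages (588 of 20639 over the genome). In grhM-Z- embryos alone, 2 were called, the fkh promoter and CrebA intron sites (1425 of 20639). In grhM+Z+ embryos some sites could not have been called, because every embryo was held at the same rank. These lay 3337 bp before the fkh start, 5.4 kb past the sage start and 9.1 kb past the sens start. At the 5 called sites the change in grhM+Z+ embryos had the same direction, with an adjusted p from 0.098 to 0.248 (limma, Benjamini-Hochberg).

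**Figure D3:**
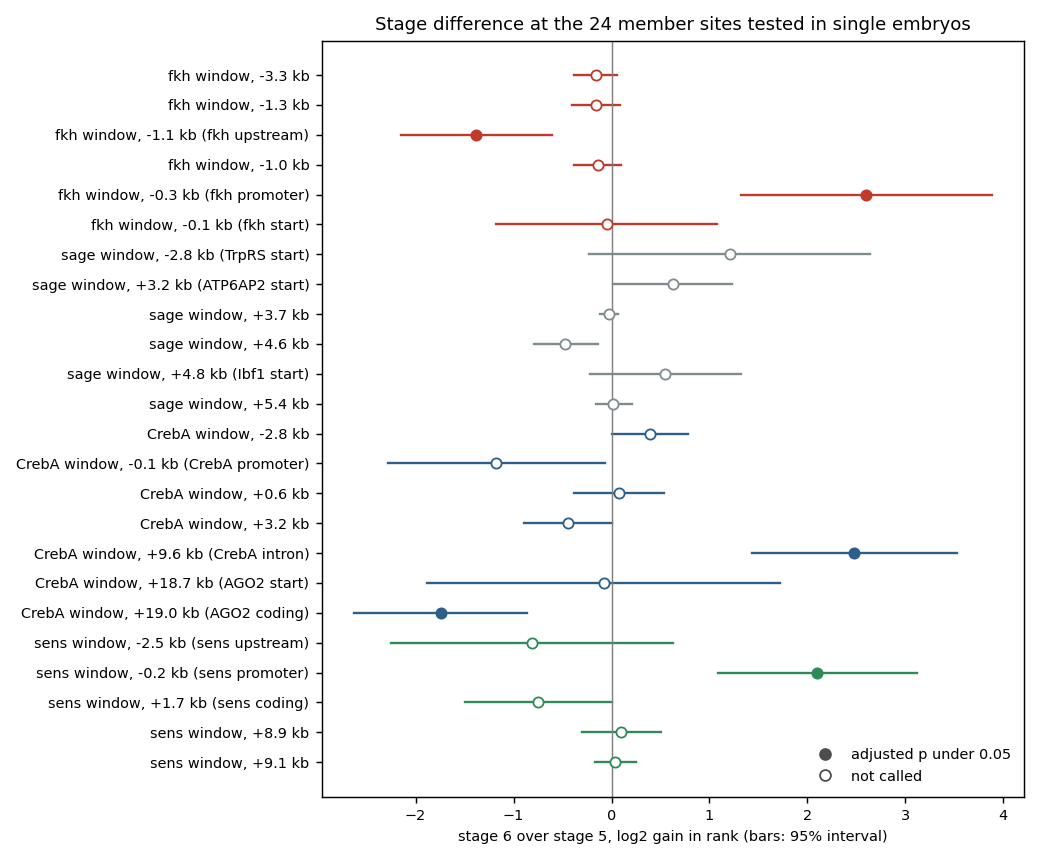
Stage 6 over stage 5 difference in log2 rank (horizontal axis) for the 24 sites tested in single embryos, with 95% intervals as bars, by gene window and distance from the gene start. Filled points passed the adjusted p of 0.05 (limma). To the right they are the fkh promoter (2.60), CrebA intron (2.48) and sens promoter (2.10) sites. To the left they are the fkh upstream (−1.38) and AGO2 coding (−1.74) sites. The sens promoter and fkh upstream sites entered the test only through the stage where they were stronger.

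Loss of both maternal and zygotic Grh was compared at each stage in single embryos. At stage 5, 0 of the 24 sites were called between grhM-Z- and grhM+Z+ embryos (limma, adjusted p under 0.05), against 2 of all 20639 sites (0.00969%), and 1 of the 24 against 1585 of all had an unadjusted p under 0.05. At stage 6, 0 of the 24 were called against 29 of all (0.141%), and 0 of the 24 against 1289 of all had an unadjusted p under 0.05. The 1 site at stage 5 was the weak site 3337 bp before the fkh start, in a lncRNA:CR43126 exon. Its difference was 0.32 ± 0.13 (log2, SE), with an adjusted p of 0.617 (limma). Some of the 24 could not have been called, because every embryo of the stage was held at the same rank. At stage 6 these were the fkh upstream site and the sites 978, 1302 and 3337 bp before the fkh start. The site 3.7 kb past the sage start was also held at stage 6, and the site 2761 bp before CrebA at stage 5. Their differences were fixed in advance and say nothing of Grh.

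The intervals show what these groups could have missed. At the fkh promoter site the genotype difference was −0.40 at stage 5 (95% interval −2.11 to 1.32) and 0.75 at stage 6 (−1.17 to 2.66). At the CrebA intron site it was −0.47 at stage 5 (−1.87 to 0.92) and 0.42 at stage 6 (−1.15 to 1.98). At the sens promoter site it was 0.12 at stage 5 (−1.24 to 1.47) and −0.27 at stage 6 (−1.79 to 1.24). Each interval includes 0 but also changes of more than 2-fold in rank. The change between stages differed between the genotypes at 0 of the 24 sites and at 0 of all (0.0%; limma interaction, adjusted p under 0.05), with 0 of the 24 and 955 of all at an unadjusted p under 0.05.

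**Figure D4:**
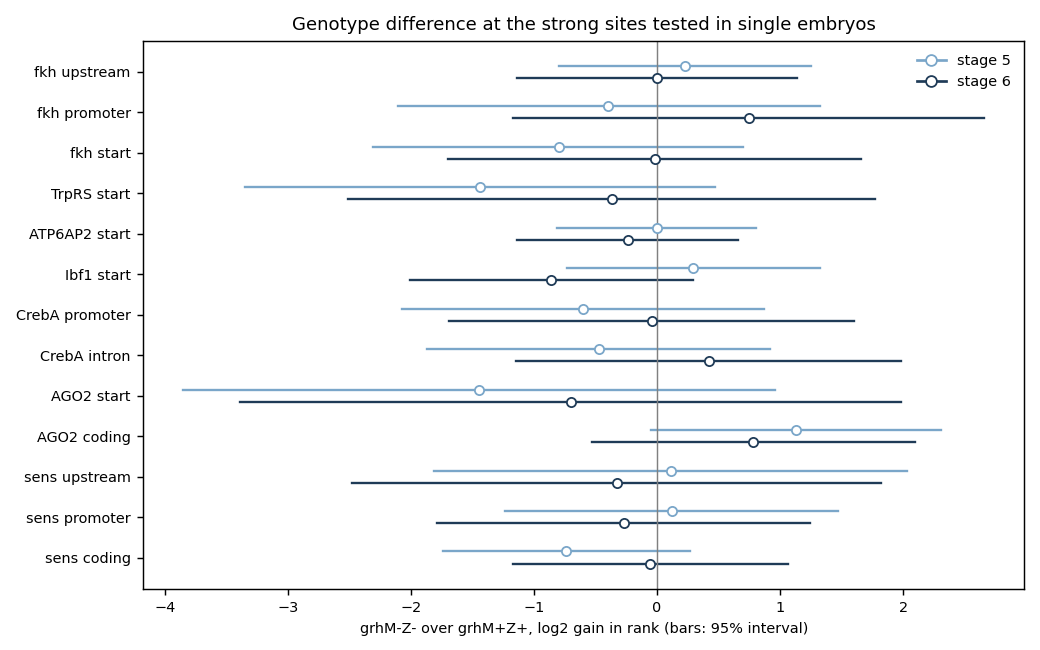
Difference in log2 rank of grhM-Z- over grhM+Z+ embryos (horizontal axis; points are estimates and bars 95% intervals) at the 13 strong sites tested, light at stage 5 and dark at stage 6. At the fkh promoter site the estimate is −0.40 at stage 5 and 0.75 at stage 6, and no site passed the test at either stage. The fkh upstream site could not pass at stage 6, where every embryo was held at the same rank.

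With 1 list per condition, the maternal and zygotic comparisons have no replicate check, and a change was counted where the rank differed by at least 4-fold. Between grhM- and grhM+ embryos 2 of 21 sites changed at stage 5 (3.68% of all sites did) and 1 of 14 at stage 6 (1.7%). At stage 5 the fkh upstream site ranked 5168 in grhM- and 1197 in grhM+ embryos, and the sens upstream site 445 in grhM- and 2307 in grhM+ embryos. At stage 6 the AGO2 start ranked 439 in grhM- and 92 in grhM+ embryos. Between grhB37/B37 and grhB37/+ embryos 0 of 17 changed at stage 6 (0.942%) and 4 of 21 at 11-12 h (8.38%). The 0 at stage 6 depended on the joining: it was 3 of 21 with summits joined within 75 bp (1.94% of all sites) and 2 of 27 with joined peaks ranked as 1 (4.78%).

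The 4 late changes lay at the sens upstream site, the TrpRS start and the 2 AGO2 sites, and none at the fkh promoter. The sens upstream site ranked 3813 in grhB37/B37 and 660 in grhB37/+ embryos, and the TrpRS start 9722 in grhB37/B37 and 1826 in grhB37/+ embryos. At AGO2 the late peak had its summit listed at the start site in grhB37/B37 (rank 2787) and at the coding site in grhB37/+ embryos (rank 1005), and the grhB37/B37 peak had a further, weaker summit on the coding side (rank 9490, fold enrichment 2.02 against 5.10 in grhB37/+) that fell into a neighbouring site. The 2 opposite changes at AGO2 therefore concern 1 peak and depend on how its summits were joined. The list of grhB37/B37 embryos at 11-12 h was shorter than that of grhB37/+ embryos (12001 against 24857 summits), and its part in these differences was not tested.

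The same rule between ages counted 2 of 18 sites for stage 6 over stage 5 in grhM- (8.46% of all) and 5 of 20 in grhM+ embryos (11.8%). These included the fkh promoter (5.58-fold) and CrebA intron (6.32-fold) sites in grhM+ embryos, and the TrpRS start in both (8.34-fold in grhM-, 6.19-fold in grhM+). The other change in grhM- was the sens upstream site, weaker at stage 6 (rank 2845 at stage 6 against 445 at stage 5, 6.41-fold). In grhM+ embryos the fkh upstream site was weaker at stage 6 (12.6-fold) and the AGO2 start stronger (8.28-fold). For 11-12 h over stage 6 it counted 5 of 21 sites in grhB37/B37 (20.8%) and 6 of 23 in grhB37/+ embryos (18.7%), shares close to those of all sites. The CrebA intron site was weaker at 11-12 h in both (11.5-fold in grhB37/B37, 22.2-fold in grhB37/+), and the fkh promoter site was 18.6-fold ahead in grhB37/+ embryos.

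The sites were also searched for 4 short motifs within 50 bp of the strongest summit, on both strands: AACCGGTT and AACTGGTT (Grh), CAGGTAG (Zelda) and TGTTTAC (forkhead). None of the 17 strong sites held any of them. Among all 15178 sites with a rank within 5000, 0.264% held AACCGGTT, 0.764% AACTGGTT, 3.51% CAGGTAG and 2.54% TGTTTAC. With shares this low and 17 sites, the 0 is not read as a result about these genes. Over the 79 sites AACCGGTT was found at 0 (0.151% of all sites held it) and AACTGGTT at 1 (0.49% of all). CAGGTAG was found at 1 (1.4% of all) and TGTTTAC at 2 (2.01% of all). The 2 forkhead matches lay at weak sites, 3337 bp before the fkh start and 4.6 kb past the sage start, in the coding part of Ibf1. These letters are a description of the window and say nothing of binding.

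Other genes of the salivary gland were taken as a list of 16: the specification genes Scr, exd, hth and tsh, the gland and invagination genes hkb, rib, klar, crb, fog and 18w, the gland product genes PH4alphaSG1, PH4alphaSG2 and pip, and the duct genes trh, eyg and toe. Of 133 sites tested in their windows, 18 were higher at stage 6 (13.5%, against 9.42% of all sites) and 10 lower (7.52%, against 5.82% of all sites) by limma. In all, 10 of the 16 genes had at least 1 higher site, 7 at least 1 lower, 5 both and 4 neither. The strongest summit of toe, a Pax gene, ranked 118 to 457 in the stage 6 embryos against 1154 to 3542 in the stage 5 embryos. That of hkb, a zinc-finger gene that acts in gland invagination, ranked 162 to 1046 at stage 6 and 246 to 1321 at stage 5. By median rank, the strongest summits of Scr, exd, rib, crb, fog, 18w, trh and PH4alphaSG2 stood lower at stage 6, and those of the other listed genes stood higher. The median for Scr was 3341 at stage 6 against 1411.5 at stage 5, and for 18w 455 at stage 6 against 68.5 at stage 5. At 11-12 h the strongest summit of Scr ranked 61 in grhB37/B37 and 56 in grhB37/+ embryos. That of hth ranked 89 in grhB37/B37 and 41 in grhB37/+ embryos, and that of 18w 144 and 75. These ranks were ahead of those of the fkh promoter site, 249 in grhB37/B37 and 129 in grhB37/+ embryos. PH4alphaSG1, a prolyl 4-hydroxylase gene of the secreting gland, had no strong site in its window. Its best ranks were 21336 to 28095 in the stage 6 embryos and 24045 to 37372 in the stage 5 embryos that listed a summit. None was listed in grhM+Z+ embryo 3 of stage 5, in the grhM+ list of stage 5 or in either list from 11-12 h.

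The genes most like each member in the best rank of their windows over the 12 conditions were Pp1-13C, CG15894 and CG42354 for fkh (Pearson r 0.901, 0.898 and 0.887), CG11112, CG42676 and Glo1 for sage (0.976, 0.96 and 0.95), MED9, Dgp-1 and Nup75 for CrebA (0.914 each) and Syt4, kek4 and CG9426 for sens (0.803, 0.789 and 0.789). The median r over all genes was −0.0676 for fkh, 0.209 for sage, 0.165 for CrebA and 0.0432 for sens. The best site was the TrpRS start in 19 of 19 lists for sage and an AGO2 site in 15 of 19 for CrebA, so those likenesses rest wholly (sage) or mostly (CrebA) on sites of neighbouring genes. All points share the same lists and their depth, and the values are a description.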

How the data were processed

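ATAC-seq of whole *Drosophila* embryos gave 12 peak lists from 31 samples. The authors trimmed paired reads with Trimmomatic (version 0.36), aligned them to dm6 with Bowtie2, kept short fragments (not for the single-end 11-12 h libraries) and called summits with MACS2. The deposited columns used were the fold enrichment at the summit (a ratio over local background) and the −log10 p-value and −log10 q-value, the lowest −log10 q being 1.3. In 4 lists peak names carry an embryo prefix, which splits them into 11 embryos; their numbers here follow the prefixes. Read depth is not given in the sources used here; fragments at a summit were recovered from the fold and −log10 p (at least 99.9% within 0.05 of a whole number).

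Summits were ranked by −log10 q per list, joined within 150 bp, and ranks held at 15000 or at the shorter list. Sites within rank 15000 in at least 2 embryos were tested on −log2 rank with limma (version 3.58.1; R version 4.3.3), group means, trended variance and Benjamini-Hochberg adjustment. The fit was tested on simulated data. Condition lists were compared by a 4-fold change in rank, with no test. Annotation was Ensembl BDGP6 on the same assembly. The sites named are those within rank 5000 in at least 1 list. The members, the gene lists and the motifs were chosen with earlier results of these data known. Other orders, held ranks, filters, joining distances and leaving out embryos were tried.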

Additional observations from a re-analysis of the deposited data

Results flagged for a closer look

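One result moved in opposite directions in 2 genotypes. Between 11-12 h and stage 6 the AGO2 coding site, 235 bp past the start of AGO2 in the CrebA window, changed by −1.21 on the log2 scale of rank in grhB37/B37 and by 2.46 in grhB37/+ embryos. Each genotype had 1 list per age, so the difference was not tested. In grhB37/B37 embryos at 11-12 h the same peak had its stronger summit at the AGO2 start site (rank 2787) and a weaker one (rank 9490) on the coding side that fell into a neighbouring site.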

How the results depend on the processing

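The number of sites called between stages in single embryos was 5. It was 3 with ranks held at 7500 and 8 on log2 fold enrichment, and between 4 and 6 under the other settings (order by fold enrichment, joined peaks, the shortest list as limit, both other filters, joining within 75 or 250 bp). Leaving out 1 embryo gave 3 to 6 calls, the 3 without grhM+Z+ embryo 1 of stage 6. The CrebA intron call was kept in 20 of 20 alternatives, the fkh promoter and sens promoter calls in 18 each, the AGO2 coding call in 17 and the fkh upstream call in 14. Joining within 250 bp merged the 2 summits of the fkh promoter peak, so that the one 96 bp before the start took the value 2.60 in place of −0.05. Genotype differences at stage 5, at stage 6 and between stages gave 0 calls at these genes in every alternative run (leaving out 1 embryo 0 to 0). Over the 8 comparisons of condition lists 25 changes were counted at 4-fold, 53 at 2-fold, 9 at 8-fold, 51 with joined peaks ranked as 1, and 20 to 34 otherwise. The setting without a filter kept sites within the held rank in 1 embryo, since sites beyond it everywhere have a single value. No paired analysis was possible because the embryo prefixes carry no replicate number. Late values are limited by short lists with 1 library each.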
